A study of Mus musculus with 36 samples.

Results

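Heme and iron handling was followed through 9 genes: Hmox1, Blvrb, Slc40a1, Slc11a1, Tfrc, Fth1, Ftl1, Hebp1 and Alas1. They were taken as every probe whose symbol in the array annotation was one of these names, which gave 14 of 25697 probes. Of these, 13 probes for 8 genes were tested among 9606 genes, and all 13 gave a signal above background on all 36 arrays. The only probe for Ftl1, the ferritin light chain, was above background on 0 of 36 arrays, with signals of 49.4 to 100.6 (median 69.1), and Ftl1 has no level here. The list was chosen by function with the log2 levels and group differences of these arrays already known, so the values of its members are given as a description, with no p-value.

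The samples were mouse splenic dendritic cells (DCs), sorted as CD11chi CD3- DX5- B220- cells. Poly IC, a synthetic double-stranded RNA, was injected intraperitoneally at 50 µg. The treated mice were chimeras that carried WT (CD45.1) marrow mixed with PRR-/- marrow, which lacks both poly IC receptors MDA5 (Ifih1) and TLR3, or with marrow lacking the type I interferon (IFN) receptor (IFNAR-/-). WT and knockout DCs, separated by CD45.2, therefore came from hosts that also held responding WT cells. The labels of the WT DCs do not state which knockout marrow shared the host. The study's methods name C57BL/6 mice and state no strain background for the knockout donors. Arrays 1 and 2 of the unstimulated group and of both knockouts at 4 h were closer to each other than the arrays of every other pair and entered as their mean (named sample 1-2), which left 4 PRR-/- samples at 4 h, 4 IFNAR-/- samples at 4 h, 8 WT samples at 4 h, 3 IFNAR-/- samples at 14 h, 6 WT samples at 14 h and 8 unstimulated samples. The labels of the unstimulated DCs state no genotype, and by the study's methods its controls were of 2 kinds, DCs of PBS-injected chimeras and of PRR-/- mice given poly IC, which the labels do not tell apart. The labels give neither ages nor the animals behind a sample. By the study's methods and legends the mice were young adults and a sample was a pool of several mice, so the spread between samples is one between pools and may be partly technical.

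Between 10428 and 12326 probes were above background on an array. Ifih1 was above background on 0 of 5 PRR-/- arrays and 8 of 8 WT arrays at 4 h, Tlr3 on 1 of 5 and 8 of 8, and the Ifnar1 probe on 0 of 36 arrays, so that it checks nothing. All 5 measured IFN response genes were higher in WT DCs than in unstimulated DCs at both times and lower in IFNAR-/- DCs than in WT DCs. Of 14 DC markers, 12 were tested, and their mean log2 level lay between 10.34 and 11.33 in every sample, although Flt3 was above background on 1 of 36 arrays and Cd8a on 0. The mean hid calls, as defined below, in single markers (log2 differences in parentheses). Xcr1 was called lower than unstimulated in IFNAR-/- DCs at 4 h (-1.13) and 14 h (-1.30) and in WT DCs at 14 h (-1.24). Irf8 was called lower in IFNAR-/- DCs at 4 h (-1.40) and Itgae in WT DCs at 14 h (-1.34). Itgae was called higher in IFNAR-/- than in WT DCs at 14 h (1.60). In such bulk samples fewer cells of a type and less RNA per cell cannot be told apart.

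Heme oxygenase 1, encoded by Hmox1, opens the heme ring and frees iron, carbon monoxide and biliverdin, which biliverdin reductases, Blvrb among them, convert further. Iron then leaves the cell through ferroportin (Slc40a1), is stored in ferritin (Fth1, Ftl1), or is moved out of the phagosome by NRAMP1 (Slc11a1), while the transferrin receptor (Tfrc) brings iron in and Alas1 opens heme synthesis. In the spleen this work is best known from red pulp macrophages, which clear aged red cells and depend on the heme-induced factor Spic.

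RefSeq windows that run from 250 bases before to 50 bases after a transcription start (GRCm38.p6) were given for 7 of the 9 genes, as 11 windows. Hmox1 and Slc40a1 had none. The 250 bases before the start are shown for the 3 genes with a window that were called between genotypes, each 5′ to 3′ on the gene's strand. Hebp1 (chr6:135168216-135168465, minus strand) encodes a heme-binding protein. Blvrb (chr7:27447728-27447977, plus strand) is shown for its first start and Slc11a1 (chr1:74374953-74375202, plus strand) for its only one. Capitals mark any match to the motifs searched.
Hebp1: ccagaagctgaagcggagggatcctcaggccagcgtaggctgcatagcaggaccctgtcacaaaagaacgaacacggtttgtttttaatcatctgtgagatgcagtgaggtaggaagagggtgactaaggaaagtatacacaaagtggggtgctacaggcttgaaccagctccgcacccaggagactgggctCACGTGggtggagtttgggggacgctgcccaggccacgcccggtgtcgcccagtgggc
Blvrb: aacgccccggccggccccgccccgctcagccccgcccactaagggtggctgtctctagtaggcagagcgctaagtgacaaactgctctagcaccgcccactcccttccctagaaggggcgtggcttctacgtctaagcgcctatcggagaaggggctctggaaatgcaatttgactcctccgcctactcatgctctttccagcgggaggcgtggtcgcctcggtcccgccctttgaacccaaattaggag
Slc11a1: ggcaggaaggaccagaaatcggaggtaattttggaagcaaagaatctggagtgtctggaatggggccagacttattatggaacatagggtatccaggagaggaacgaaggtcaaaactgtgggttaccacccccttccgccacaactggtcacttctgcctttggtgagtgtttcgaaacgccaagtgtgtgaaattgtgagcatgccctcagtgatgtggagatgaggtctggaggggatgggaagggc
The motifs were searched on both strands of the 300 bases. They were TGACNNNGC (antioxidant response element, present in 12.39% of 32851 such windows), TGAGTCA (Maf recognition core, 5.2%), the IFN-stimulated response element (3.44%) and ACGTG (hypoxia response core, 19.62%). Only ACGTG was found among the members. With positions counted from the start site, it stood in Hebp1 on both strands as overlapping matches that began at -58 and -57, in Blvrb at -123 from its second start, and in Tfrc in the stretch its 2 windows share. A match in the letters describes this window and no more.

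Levels are given as log2 of the signal after quantile normalization over all arrays, and a gene was called where limma gave an adjusted p under 0.05 with a difference of at least 2-fold. Hmox1 was the member called in the most comparisons. At 4 h its levels were 10.68, 11.29, 10.40 and 10.74 in the PRR-/- samples, against 8.81, 10.20, 9.43 and 9.05 in the IFNAR-/- samples. In the WT samples at 4 h they ran between 8.49 and 10.15 (median 9.62), and in the unstimulated samples between 6.92 and 8.13 (median 7.49). Every poly IC sample at 4 h thus lay above every unstimulated one, and every PRR-/- sample lay above every WT and IFNAR-/- sample of that time. The Hmox1 level over unstimulated was 9.45-fold in PRR-/- DCs (log2 difference 3.24 ± 0.26, SE), 3.57-fold in IFNAR-/- DCs (1.84 ± 0.26) and 3.9-fold in WT DCs (1.96 ± 0.22).

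At 14 h the Hmox1 levels were 10.25, 10.10 and 10.13 in the IFNAR-/- samples, whereas those of the 6 WT samples lay between 6.76 and 7.76 (median 7.27). The IFNAR-/- samples stayed in the range of the treated cells at 4 h and the WT samples overlapped the unstimulated ones. The difference was 7.21-fold between IFNAR-/- and WT DCs (2.85 ± 0.31), and Hmox1 was 4.56-fold lower in WT DCs at 14 h than in WT DCs at 4 h (-2.19 ± 0.23). Ordered by their means, the groups ran PRR-/- 4 h, IFNAR-/- 14 h, WT 4 h, IFNAR-/- 4 h, unstimulated and WT 14 h. Samples of neighbouring groups overlapped except between the first pair and between IFNAR-/- 4 h and unstimulated.

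**Figure D1:**
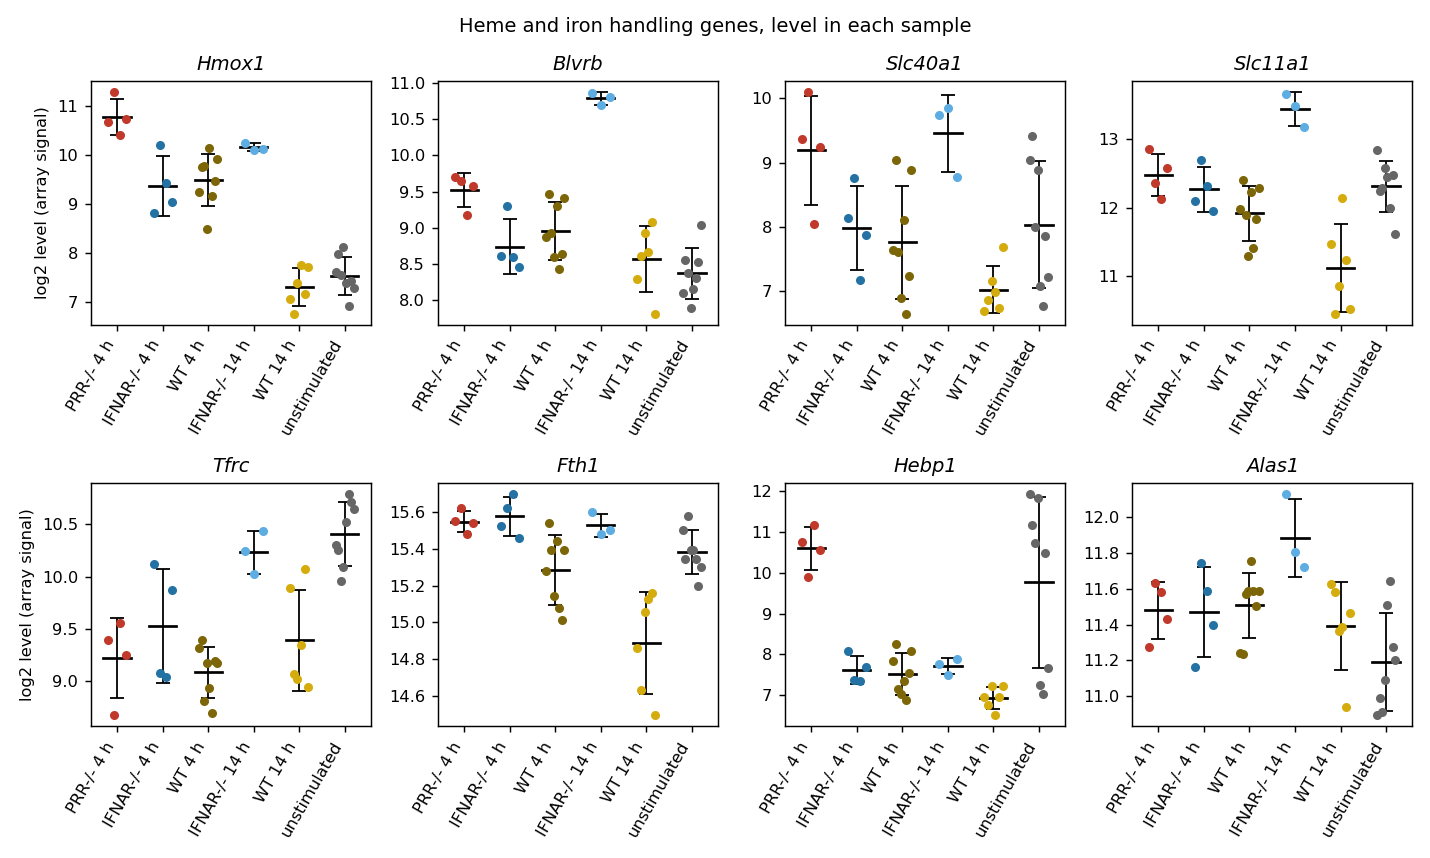
Log2 level (vertical axes) of each of the 8 measured genes in each of 33 samples, by group (horizontal axes), with the group mean and SD. Hmox1 in the PRR-/- samples at 4 h lay between 10.40 and 11.29, above all other samples, and Hebp1 in unstimulated samples was spread between 7.04 and 11.92.

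Blvrb, which reduces biliverdin and flavins, was highest in IFNAR-/- DCs at 14 h, with levels of 10.86, 10.69 and 10.81, against 7.82 to 9.07 (median 8.64) in WT DCs of that time. At 4 h the PRR-/- samples held 9.70, 9.65, 9.18 and 9.57, the IFNAR-/- samples 8.61, 9.29, 8.60 and 8.46, and the WT samples 8.43 to 9.46 (median 8.90). Unstimulated samples lay between 7.90 and 9.03 (median 8.35). The 3 IFNAR-/- samples at 14 h therefore stood above all others, and the PRR-/- samples stood above the unstimulated ones but overlapped the WT samples. Blvrb was 4.65-fold higher in IFNAR-/- than in WT DCs at 14 h (2.22 ± 0.25) and 2.23-fold higher in PRR-/- than in unstimulated DCs (1.16 ± 0.22), and in WT DCs it was not called at either time (0.59 ± 0.18 at 4 h and 0.20 ± 0.19 at 14 h). In the order of means, IFNAR-/- 14 h, PRR-/- 4 h, WT 4 h, IFNAR-/- 4 h, WT 14 h and unstimulated, all neighbours after the first pair overlapped.

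Slc40a1, the only known iron exporter of mammalian cells, had levels of 9.74, 9.84 and 8.77 in IFNAR-/- samples at 14 h, against 6.70 to 7.68 (median 6.93) in WT samples. The groups did not overlap, and the level was 5.38-fold higher in IFNAR-/- DCs (2.43 ± 0.55). At 4 h the PRR-/- samples gave 9.37, 10.09, 8.04 and 9.25, the IFNAR-/- samples 8.14, 8.75, 7.18 and 7.87, and the WT samples 6.65 to 9.04 (median 7.62). The difference of 1.43 ± 0.47 between PRR-/- and WT DCs was not called. Over unstimulated DCs the difference was 1.16 ± 0.47 in PRR-/- DCs (2.23-fold) and also not called, although it was called with arrays scaled to one median (1.22) and against unstimulated samples 6 to 9 (1.95), where samples 1 to 5 gave 0.36. It was also called with all arrays as samples, without raising low signals, with a stricter detection filter and in the authors' table. In WT DCs at 4 h the difference was -0.27 ± 0.39 and not called, but -1.07 and called against unstimulated samples 1 to 5, and 0.52 against samples 6 to 9. Unstimulated samples were spread between 6.77 and 9.41 (median 7.93), and samples of neighbouring groups overlapped throughout the order IFNAR-/- 14 h, PRR-/- 4 h, unstimulated, IFNAR-/- 4 h, WT 4 h and WT 14 h. Slc40a1 was called as 2.01-fold lower in WT DCs at 14 h than in unstimulated DCs (-1.01 ± 0.42), but the difference was -1.81 against unstimulated samples 1 to 5 and -0.21 against unstimulated samples 6 to 9, where it was not called. The call was also lost without the detection filter, with arrays scaled to one median and by the methods' t-test. Limma on the 2 groups alone and the limit of adjusted p under 0.01 gave no call either.

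Slc11a1, the divalent metal transporter of the phagosome membrane, was measured by 4 probes, and the brightest is given. In IFNAR-/- samples at 14 h the levels were 13.66, 13.49 and 13.18, against 10.45 to 12.14 (median 11.05) in WT samples. The IFNAR-/- samples lay above every other sample of the series. The difference was 5.02-fold between IFNAR-/- and WT DCs (2.33 ± 0.29; 1.99 to 2.62 over the 4 probes), with IFNAR-/- DCs 2.19-fold above unstimulated DCs (1.13 ± 0.28) and WT DCs 2.29-fold below them (-1.20 ± 0.22). The call over unstimulated in IFNAR-/- DCs was lost against unstimulated samples 1 to 5 (0.96) and without IFNAR-/- sample 1. At 4 h Slc11a1 was called in no comparison: the PRR-/- samples held 12.13 to 12.85, the IFNAR-/- samples 11.96 to 12.70, the WT samples 11.29 to 12.41 and the unstimulated samples 11.62 to 12.84, and these ranges overlapped.

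Tfrc was called lower in PRR-/- and WT DCs than in unstimulated DCs at 4 h. At 4 h its levels were 9.40, 8.67, 9.56 and 9.25 in PRR-/- samples and 8.69 to 9.39 (median 9.17) in WT samples, against 9.96 to 10.79 (median 10.41) in unstimulated samples. Neither genotype overlapped the unstimulated samples, and Tfrc was 2.28-fold lower in PRR-/- DCs (-1.19 ± 0.22) and 2.5-fold lower in WT DCs (-1.33 ± 0.18). The IFNAR-/- samples at 4 h, with 10.12, 9.08, 9.05 and 9.87, were spread across this gap, and the difference from unstimulated DCs was -0.88 ± 0.22 and not called. A second Tfrc probe gave -1.08 ± 0.25 for this difference. The split between genotypes depended on the unstimulated samples used: against samples 1 to 5 the difference was -0.93 in PRR-/- DCs, where the call was lost, and against samples 6 to 9 it was -1.14 in IFNAR-/- DCs, where it was called. IFNAR-/- DCs were not shown to differ from WT DCs in Tfrc at 4 h (0.44 ± 0.22). At 14 h the IFNAR-/- samples held 10.25, 10.02 and 10.43 and the WT samples 8.94 to 10.08 (median 9.21), which overlapped. Tfrc in WT DCs was then 2.03-fold below unstimulated DCs (-1.02 ± 0.19), a value at the edge of the 2-fold limit that became -0.94 when arrays were scaled to one median and -0.76 against unstimulated samples 1 to 5, where the call was lost. The second probe gave -1.19 ± 0.22 for WT DCs at 14 h over unstimulated DCs.

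Fth1, the ferritin heavy chain with ferroxidase activity, kept within 14.50 and 15.70 in all samples and was called in no comparison. The largest of its differences among the main comparisons was between IFNAR-/- DCs at 14 h (15.48 to 15.60, median 15.50) and WT DCs (14.50 to 15.16, median 14.96), which did not overlap and differed by 0.64 ± 0.12. A second Fth1 probe gave 0.14 for this difference. Alas1, which makes the first intermediate of heme, was likewise called in no comparison, with differences from unstimulated DCs of 0.29 ± 0.14 (PRR-/-), 0.28 ± 0.14 (IFNAR-/-) and 0.32 ± 0.11 (WT) at 4 h. At 14 h they were 0.69 ± 0.15 (IFNAR-/-) and 0.20 ± 0.12 (WT).

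Hebp1 had the widest difference between PRR-/- and WT DCs at 4 h among the 8 measured members. At 4 h its levels were 10.76, 9.90, 11.16 and 10.56 in PRR-/- samples, against 7.35 to 8.08 (median 7.54) in IFNAR-/- samples and 6.89 to 8.26 (median 7.45) in WT samples. At 14 h they were 7.49 to 7.88 in IFNAR-/- samples and 6.51 to 7.22 in WT samples. No PRR-/- sample overlapped any other poly IC sample, and the level was 8.4-fold higher in PRR-/- than in WT DCs at 4 h (3.07 ± 0.67). The unstimulated samples fell on both sides, with 11.92, 11.16, 10.72, 11.82 and 10.48 in samples 1-2, 3, 4, 5 and 8 and 7.27, 7.04 and 7.67 in samples 6, 7 and 9. Hebp1 was called lower than unstimulated in IFNAR-/- DCs at 4 h (-2.14 ± 0.67), WT DCs at 4 h (-2.24 ± 0.54) and WT DCs at 14 h (-2.81 ± 0.59). These values moved with the unstimulated samples used: at 4 h the difference was -3.78 in IFNAR-/- DCs and -3.88 in WT DCs against samples 1 to 5, and -0.49 and -0.59 against samples 6 to 9, where neither was called, and at 14 h in WT DCs it was -4.46 and -1.17. Samples 6 to 9 include the high sample 8 (10.48), while samples 6, 7 and 9 lay within the range of WT samples at 4 h. In IFNAR-/- DCs at 14 h Hebp1 lay at -2.04 ± 0.74 from unstimulated DCs and was not called, but it was called against samples 1 to 5 (-3.69) and not against samples 6 to 9 (-0.40). PRR-/- DCs were -0.81 from samples 1 to 5 and 2.48 from samples 6 to 9.

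Over the 33 samples, which share arrays, scaling and groups, the genes whose levels followed Hebp1 most closely were Gab2 (Pearson r = 0.931), Klra17 (0.921) and Fut10 (0.907). Gab2, an adaptor of cytokine receptor signalling, was above background on 5 of 5 PRR-/- arrays and 1 of 8 WT arrays at 4 h. Klra17, a lectin-like receptor gene of chromosome 6 as is Hebp1, differed by 2.07 ± 0.53 without overlap of its samples. Fut10 was not above background on any of the 8 WT arrays and was at least 1.84-fold higher in PRR-/- DCs. These 3 genes were picked for following Hebp1 in the same samples, so their differences are a description with no p-value. In unstimulated samples 6, 7 and 9, where Hebp1 was low, Gab2 and Fut10 were at the lowest level, and both were above background on 6 of 9 unstimulated arrays. Klra17 lay between 8.24 and 8.38 in those samples and between 10.81 and 11.85 in the other unstimulated samples. Of the nearest 3 tested genes on each side of Hebp1, looked up after its values were seen, none was called between PRR-/- and WT DCs. Fam234b (0.86, limma adjusted p = 0.0731) and Emp1 (1.06, limma adjusted p = 0.236) had the largest differences, and Cdkn1b, Ddx47, Gprc5a and Gsg1 lay between -0.24 and 0.10. The PRR-/- and WT samples of Emp1 did not overlap, as held for 0.802% of all genes, while those of Fam234b did. Emp1 lay between 8.15 and 8.55 in unstimulated samples 6, 7 and 9 and between 8.94 and 10.27 in the other unstimulated samples. For Fam234b these 2 parts of the unstimulated samples overlapped. The deleted genes lie on chromosomes 2 (Ifih1) and 8 (Tlr3), and both Hmox1 and Fut10 lie on chromosome 8 as well. None of the 6 tested genes nearest to Hmox1 was called.

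**Figure D2:**
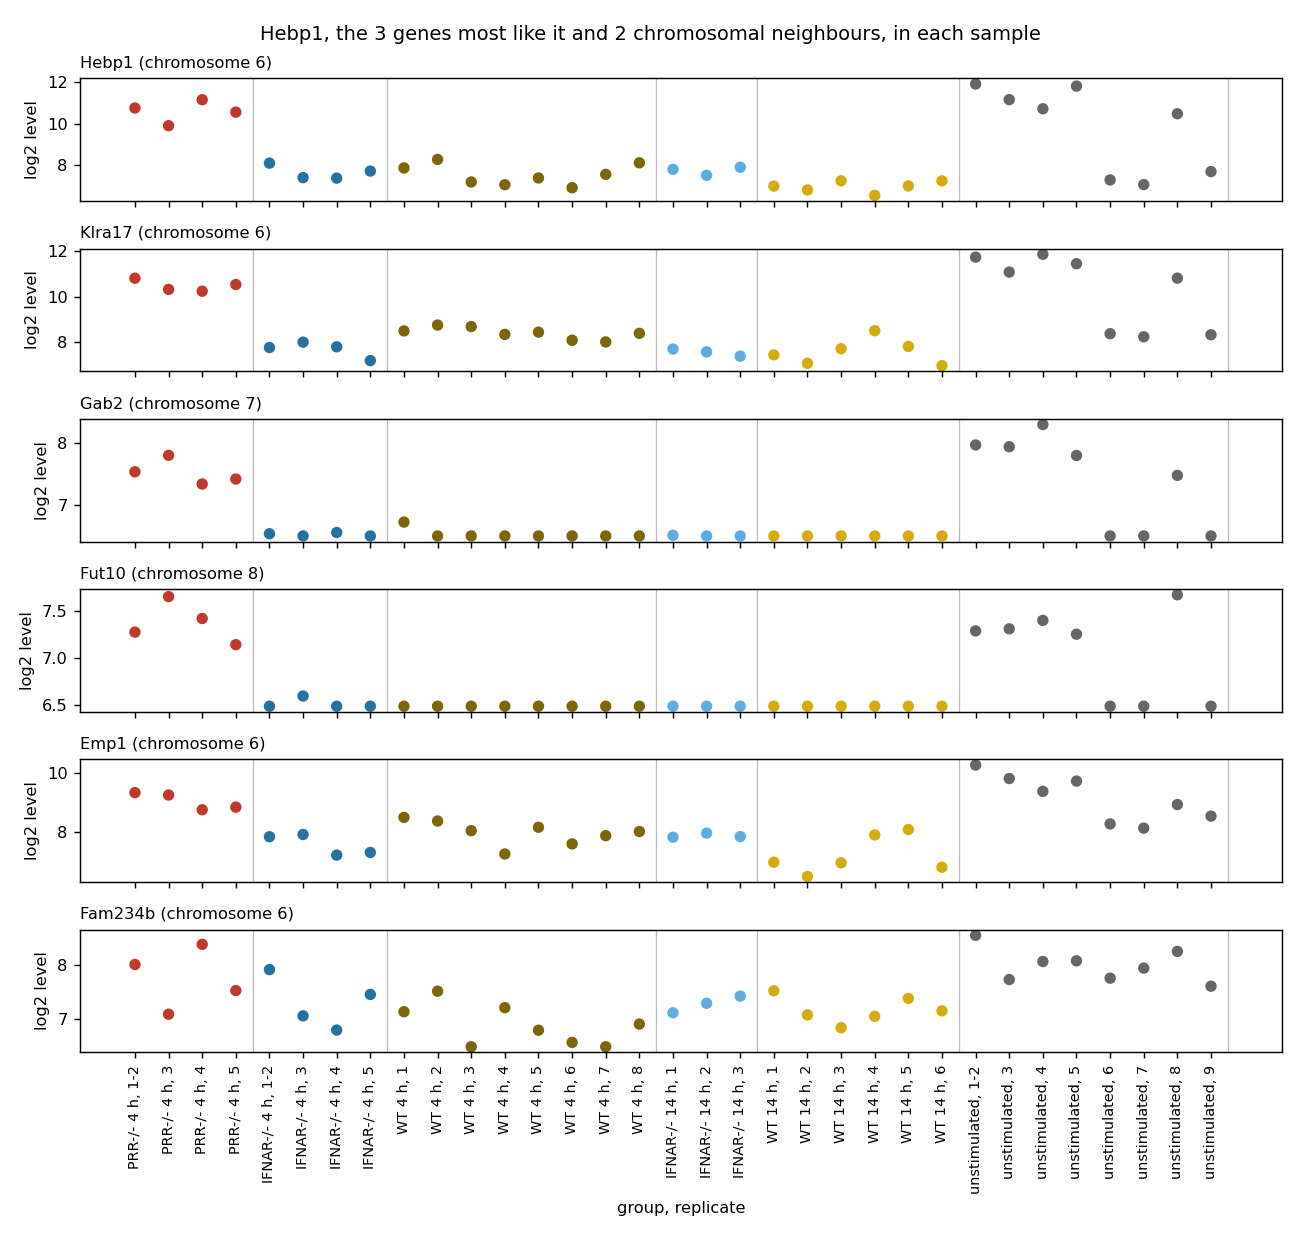
Log2 level (vertical axes) of Hebp1, the 3 genes that followed it most closely and its neighbours Emp1 and Fam234b, in each sample (horizontal axis, grouped and coloured by group). The PRR-/- samples of Hebp1 lay between 9.90 and 11.16, the IFNAR-/- and WT samples between 6.51 and 8.26, and the unstimulated samples on both sides.

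The comparison of PRR-/- with WT DCs at 4 h asks what direct sensing of poly IC adds in DCs from hosts that held responding WT cells. Part of the WT samples may come from hosts with IFNAR-/- marrow, which the labels do not tell. It called few genes, 0.302% of those tested, and 2 of 8 members, Hmox1 and Hebp1, both higher in PRR-/- DCs (0.125% of all genes were called higher). The same 2 members did not overlap, as did 0.802% of all genes. The median difference was 0.57 over the members and 0 over all genes. Hebp1 was as high in unstimulated samples 1-2, 3, 4, 5 and 8 (10.48 to 11.92) as in PRR-/- samples (9.90 to 11.16). The labels give the unstimulated samples no genotype, and whether Hebp1 differed between genotypes before poly IC was not tested. The samples were also regrouped into 3 subsets that joined the most alike samples of different groups. The subsets were chosen after the data were seen and checked on genes outside all lists. Each held 1 or 2 PRR-/- and 2 or 4 WT samples. Within them Hmox1 differed by 1.04 to 1.45, Hebp1 by 2.70 to 3.42 and Slc40a1 by 1.03 to 1.75. As the same samples were regrouped, these ranges are no separate result. The calls rested on few samples: without PRR-/- sample 1-2, 4 or 5 Hebp1 was not called, and without PRR-/- sample 3 Hmox1 was not called.

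Against IFNAR-/- DCs at 4 h, PRR-/- DCs were called higher in 2 members, Hmox1 (1.40 ± 0.31) and Hebp1 (2.97 ± 0.77), where 5.09% of all genes were called and 3.91% were called higher. Between IFNAR-/- and WT DCs at 4 h, where 4.62% of all genes were called, 0 of 8 members were called in limma or by the methods' t-test, 1 had an adjusted p under 0.05 in limma without the fold limit (also 1 by unadjusted p), and none was free of overlap (18.8% of all genes were). Hmox1 differed by -0.13 ± 0.26 and Hebp1 by 0.10 ± 0.67.

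Against unstimulated DCs at 4 h, the members called were Hmox1, Blvrb and Tfrc in PRR-/- DCs (3 of 8, with 7.28% of all genes called), Hmox1 and Hebp1 in IFNAR-/- DCs (2 of 8, 2.96% of all genes) and Hmox1, Tfrc and Hebp1 in WT DCs (3 of 8, 7.19% of all genes). Members without overlap numbered 3 in PRR-/- DCs (20.8% of all genes), 1 in IFNAR-/- DCs (10.6%) and 2 in WT DCs (17.9%). Hmox1 was the only member called in all 3 genotypes. As these 3 comparisons share the unstimulated samples, their likeness is no separate result. In IFNAR-/- DCs the count was 1 when IFNAR-/- sample 3, 4 or 5 was left out.

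At 14 h the comparison of IFNAR-/- with WT DCs asks which changes follow the IFN receptor of the cell itself. It called 4 of 8 members, all higher in IFNAR-/- DCs (Hmox1, Blvrb, Slc40a1 and Slc11a1), where 9.63% of all genes were called and 4.71% were called higher. Of the 8 members, 7 had no overlap, all but Tfrc, as had 27.3% of all genes. The median difference was 1.53 over the members and 0 over all genes, and leaving out any sample kept the count at 4.

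Relative to unstimulated DCs, IFNAR-/- DCs at 14 h were called higher in Hmox1, Blvrb and Slc11a1 (3 of 8, with 2.48% of all genes called and 1.68% called higher), with 4 members free of overlap (11% of all genes). WT DCs at 14 h were called lower in Slc40a1, Tfrc, Slc11a1 and Hebp1 (4 of 8, with 11% of all genes called and 4.77% called lower), with 1 member, Fth1, free of overlap (18.1%). Only 2 of these 4 calls were left without unstimulated sample 8, WT sample 2 or WT sample 3, and 1, Hebp1, when arrays were scaled to one median. Between times, Hmox1 was lower in WT DCs at 14 h than at 4 h (1 of 8, with 6.33% of all genes called and 3.07% called lower), and Blvrb (2.05 ± 0.27) and Slc11a1 (1.18 ± 0.32) were higher in IFNAR-/- DCs at 14 h than at 4 h (2 of 8, with 1.96% of all genes called and 1.42% called higher). The difference between IFNAR-/- and WT DCs was itself larger at 14 h than at 4 h in 4 of 8 members, Hmox1, Blvrb, Slc40a1 and Slc11a1, in a comparison that called 7.02% of all genes and 3.85% as higher.

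**Figure D3:**
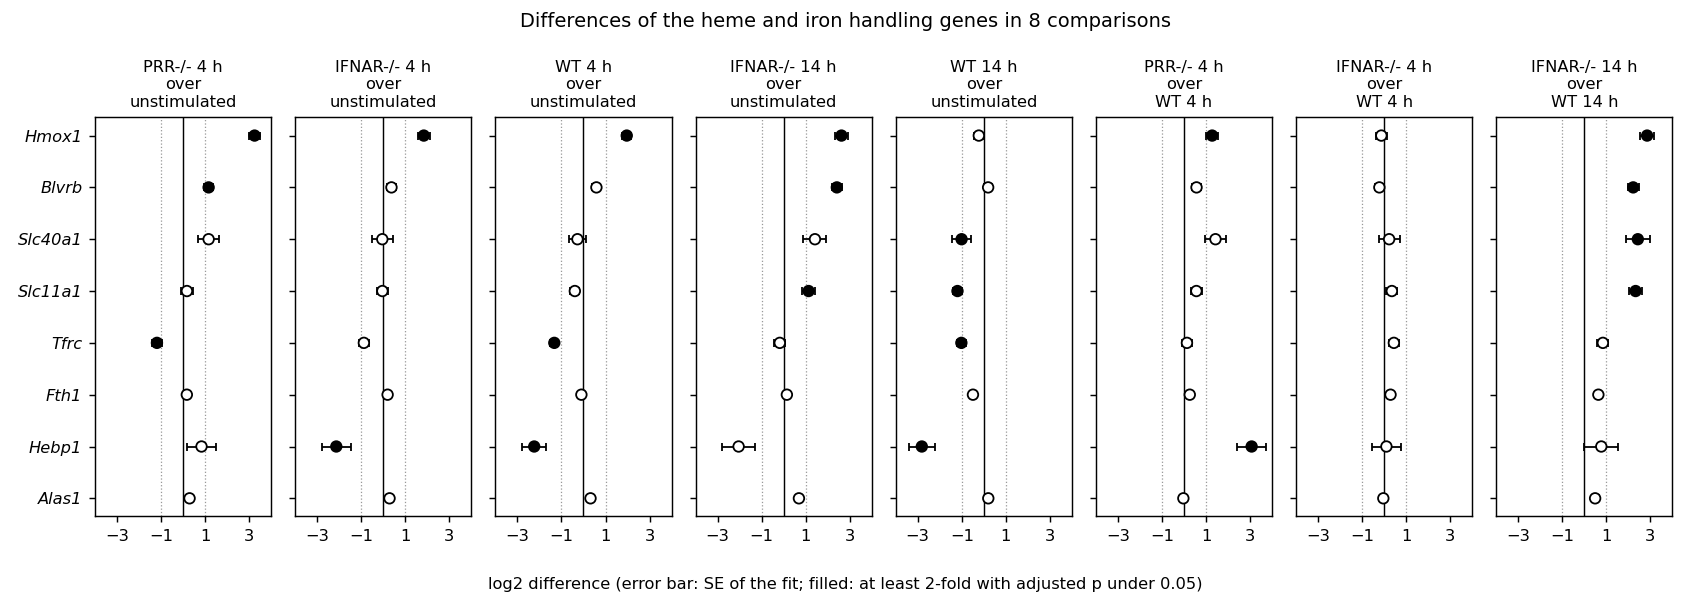
Log2 difference with its SE (horizontal axes) of the 8 measured genes in the main comparisons, with filled points for those called. The values of IFNAR-/- over WT DCs at 14 h reached 2.85 for Hmox1, 2.43 for Slc40a1, 2.33 for Slc11a1 and 2.22 for Blvrb.

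Markers of other cells moved with several of these differences. Of 14 red pulp macrophage markers, 13 were tested, and Cd5l was above background on 0 of 36 arrays and Cd163 on 7. Their mean log2 level lay between 8.71 and 9.40 in PRR-/- samples, 7.88 and 8.43 in IFNAR-/- samples and 8.01 and 8.98 in WT samples at 4 h, between 8.89 and 9.13 in IFNAR-/- samples and 8.00 and 8.26 in WT samples at 14 h, and between 7.86 and 8.28 in unstimulated samples. The groups highest in Hmox1 and Slc40a1 were thus highest in this list too. At 4 h 3 of the 13 were called higher in PRR-/- than in WT DCs, C1qc (1.34), Spic (1.10) and Itgad (1.06). At 14 h 5 of the 13 were called higher in IFNAR-/- than in WT DCs, among them C1qb (3.88), C1qc (3.04), Treml4 (1.68) and C1qa (1.65). Not all of the list ran this way at 14 h: Spic averaged 11.22 ± 0.35 in IFNAR-/- samples and 11.72 ± 0.47 in WT samples, and Axl 10.10 ± 0.31 and 11.20 ± 0.75 (SD, n = 3 and 6). Treml4 averaged 10.29 in IFNAR-/- and 8.62 in WT samples at 14 h and 9.95 in unstimulated samples. It was called lower than unstimulated in WT DCs (-1.33) and was not called over unstimulated in IFNAR-/- DCs, whereas C1qa, C1qb and C1qc were called higher there. Over the 33 samples, which share their arrays and groups, the mean marker level had a correlation of 0.816 with Hmox1, 0.796 with Blvrb and 0.815 with Slc40a1, and of 0.64, 0.514 and 0.874 after group means were removed. C1qb and C1qc were also the genes nearest to Slc40a1 (r = 0.886 and 0.877), before Fcgr3 (0.829). The part of such cells in the members' differences was not tested.

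**Figure D4:**
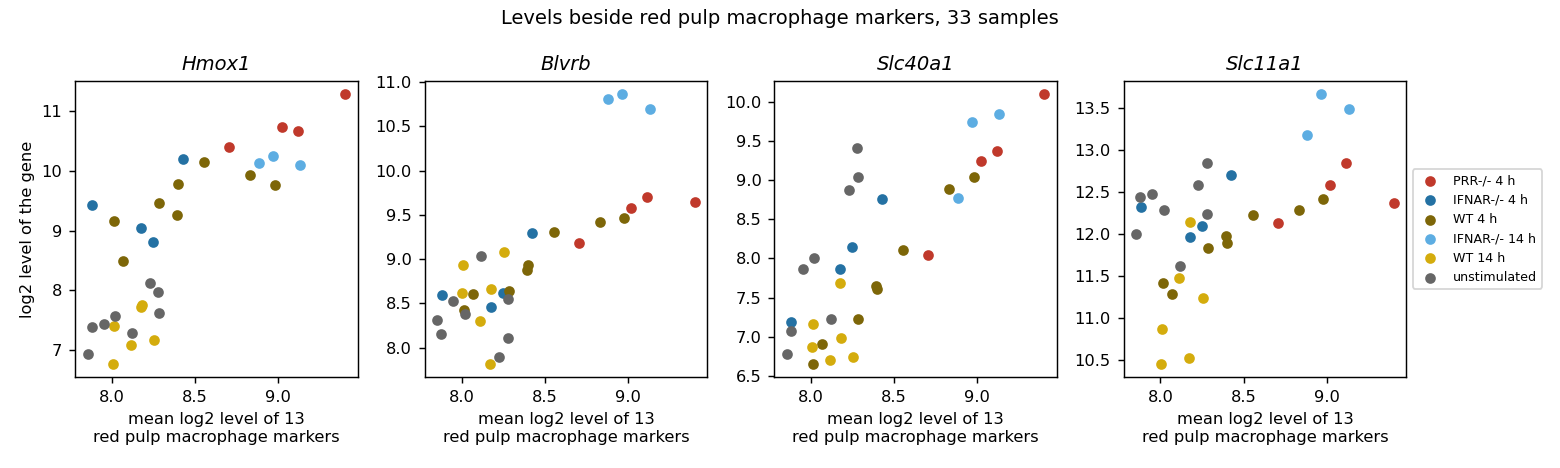
Log2 level of Hmox1, Blvrb, Slc40a1 and Slc11a1 (vertical axes) against the mean log2 level of 13 red pulp macrophage markers (horizontal axes) in 33 samples, coloured by group. The correlation was 0.816 for Hmox1, 0.796 for Blvrb, 0.815 for Slc40a1 and 0.566 for Slc11a1.

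Monocyte markers, of which 5 were tested with Ccr2 and Vcan above background on 0 of 36 arrays, had a mean level of 10.41 to 10.68 in IFNAR-/- samples and 7.50 to 9.15 in WT samples at 14 h. Lyz2 (4.65) and Cd14 (3.65) were called higher in IFNAR-/- than in WT DCs at 14 h, and Fcgr1, S100a4 and Cx3cr1 were not called. Over unstimulated DCs at 14 h, Lyz2 was called lower in WT DCs (-2.99) and higher in IFNAR-/- DCs (1.66). Cd14 was called higher in IFNAR-/- DCs (2.75) and not called in WT DCs. Both were also among the genes nearest to members: Cd14 to Hmox1 (r = 0.936, after F10 at 0.947 and Fpr2 at 0.941) and Lyz2 to Slc11a1 (0.911, after Adssl1 at 0.922 and Fcgr2b at 0.918). Of 8 neutrophil markers tested, 3 were called higher in IFNAR-/- than in WT DCs at 14 h, S100a8 (2.94), S100a9 (2.31) and Mmp9 (1.71). The S100a8 and S100a9 samples overlapped. Mmp9 averaged 9.37 in IFNAR-/-, 7.66 in WT and 9.01 in unstimulated samples. At 4 h it was called lower than unstimulated in PRR-/- (-1.39), IFNAR-/- (-1.28) and WT DCs (-1.81). The mean level of the list ran from 7.88 to 8.79 in IFNAR-/- samples against 6.74 to 7.64 in WT samples at 14 h, while Mpo and Mmp8 were above background on 0 of 36 arrays. The part of monocytes and neutrophils in the higher Hmox1, Blvrb and Slc11a1 was not tested either. The genes nearest to Blvrb were Pilrb1 (0.956), Il1a (0.90) and Gstm1 (0.872), and those nearest to Tfrc were Map11 (0.921), Mapk14 (0.914) and Setd6 (0.904).

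Erythroid transcripts moved at 4 h. Of 7 markers tested, Hba-a1 rose over unstimulated DCs in PRR-/- DCs (2.26), IFNAR-/- DCs (1.69) and WT DCs (2.39), and Hbb-bt rose in PRR-/- DCs (1.06) and WT DCs (1.39). The mean level of the list lay between 7.16 and 7.81 in PRR-/- samples, 7.16 and 7.53 in IFNAR-/- samples and 7.21 and 7.87 in WT samples, against 6.81 and 7.14 in unstimulated samples, so that all 3 groups lay above the unstimulated samples, as they did for Hmox1. Between PRR-/- and WT DCs 0 of 7 were called in limma, with 2 at an unadjusted p under 0.05. Epb42 and Rhd were above background on 0 of 36 arrays and Alas2, the erythroid form of Alas1, on 8, and the part of red cell RNA in the Hmox1 difference was not tested.

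Beyond the members, 6 lists of heme and iron genes held 87 genes, of which 62 were tested. Over unstimulated at 4 h, 2 of 62 were called in PRR-/- DCs (3.23%, with 7.28% of all genes), 4 in IFNAR-/- DCs (6.45%, with 2.96%) and 4 in WT DCs (6.45%, with 7.19%). At 14 h 6 were called in IFNAR-/- DCs (9.68%, with 2.48%) and 7 in WT DCs over unstimulated (11.3%, with 11%), and 6 between IFNAR-/- and WT DCs (9.68%, with 9.63%). Between PRR-/- and WT DCs at 4 h 0 of 62 were called in limma and by the methods' t-test, and 5 had an unadjusted p under 0.05 in limma. With the replicate number as a block, 5 were called in PRR-/- DCs over unstimulated, with Hmox2 and Keap1 added as higher and Trf as lower.

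Of 9 genes of heme breakdown and transport, Hp was the only one called over unstimulated. Haptoglobin, its product, binds free hemoglobin, and Hp rose by 2.83 ± 0.33 in PRR-/- DCs (limma adjusted p = 7.86e-08), 2.45 ± 0.33 in IFNAR-/- DCs (adjusted p = 3.3e-06) and 2.15 ± 0.27 in WT DCs at 4 h (adjusted p = 1.32e-07). At 14 h it rose by 3.41 ± 0.36 in IFNAR-/- DCs over unstimulated (adjusted p = 4.27e-08) and by 3.06 ± 0.38 over WT DCs (adjusted p = 3.33e-07), as Hmox1 did in direction. Hmox2, the constitutive heme oxygenase, fell by 1.23 on the log2 scale in IFNAR-/- DCs relative to WT DCs at 4 h (limma adjusted p = 9.81e-06). In this list no gene was called in WT DCs at 14 h.

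Among 12 genes of iron uptake and endosomal release, Trf (transferrin) and Hfe (a partner of the transferrin receptor) were called lower. Trf lay below unstimulated DCs by -1.14 ± 0.30 in IFNAR-/- DCs and -1.17 ± 0.25 in WT DCs at 4 h, and by -1.75 ± 0.34 and -2.32 ± 0.27 at 14 h. Hfe lay below them at 14 h, by -1.26 ± 0.20 in IFNAR-/- DCs and -1.32 ± 0.16 in WT DCs. Lcn2, which binds the iron carriers of bacteria, was above background on 3 of 3 IFNAR-/- arrays at 14 h, 2 of 6 WT arrays and 0 of 9 unstimulated arrays, and was at least 2.31-fold higher in IFNAR-/- than in unstimulated DCs (limma adjusted p = 0.00102). Its level was uneven in the IFNAR-/- samples (7.70 ± 1.19, SD, n = 3) and overlapped that of the WT samples, and all unstimulated samples stood at the lowest level.

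Of 14 genes around Nrf2 (Nfe2l2) and Bach1, regulators of Hmox1, Keap1 and Slc7a11 were called most often in the main comparisons. Nfe2l2 rose at 4 h in PRR-/- DCs (1.27 ± 0.20) and WT DCs (1.12 ± 0.17). Keap1, which retains Nrf2 in the cytosol, rose in WT DCs at 4 h (1.14 ± 0.19) and 14 h (1.63 ± 0.21) and was lower in IFNAR-/- than in WT DCs at both times (-1.47 ± 0.24 and -1.53 ± 0.27). Slc7a11, the cystine importer, rose in IFNAR-/- DCs over unstimulated at 4 h (1.21 ± 0.14) and 14 h (1.40 ± 0.15) and was higher in IFNAR-/- than in WT DCs at 4 h (1.13 ± 0.14). Srxn1 rose at 14 h in IFNAR-/- DCs (1.20 ± 0.19) and WT DCs (1.53 ± 0.15), and Sqstm1 rose in WT DCs at 14 h (1.13 ± 0.13) and was lower in IFNAR-/- than in WT DCs (-1.02 ± 0.17). Txnrd1 was called higher in IFNAR-/- DCs over unstimulated at 4 h (1.16 ± 0.31), with overlap of its samples. It was above background on only 4 of 5 IFNAR-/- and 4 of 9 unstimulated arrays. Some of these calls fell in groups where Hmox1 was called higher and some did not. The part of these genes in the Hmox1 differences was not tested.

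The other lists held few calls. Of 12 heme synthesis genes, Urod was called lower in WT DCs at 14 h than in unstimulated DCs (-1.10 ± 0.13). Of 10 genes of iron storage, chaperones and mitochondrial iron, Glrx5 was lower in WT DCs at 14 h than in unstimulated DCs (-1.21 ± 0.20) and higher in IFNAR-/- than in WT DCs (1.53 ± 0.26), as was Bola3 (1.19 ± 0.25). Both act in iron-sulfur cluster assembly. Of 5 genes of iron sensing and export control, 0 were called in limma in the 8 main comparisons, with an unadjusted p under 0.05 in 14 of 40 values.

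**Figure D5:**
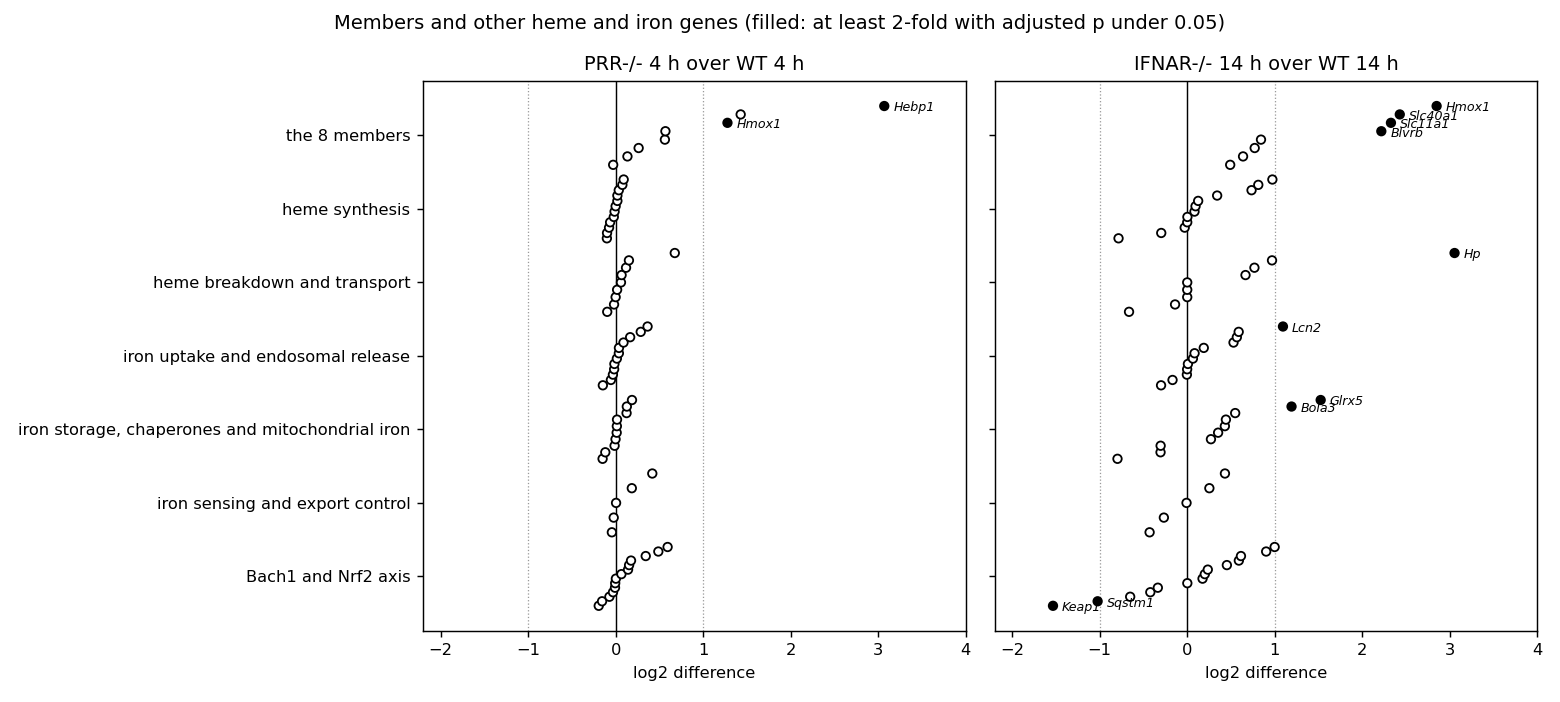
Log2 difference (horizontal axes) of the 8 measured members and of each tested gene of the other heme and iron lists (rows), for PRR-/- over WT DCs at 4 h (left) and IFNAR-/- over WT DCs at 14 h (right), with filled and named points for genes called. Outside the members 0 of 62 were called at 4 h and 6 of 62 at 14 h, with Hp furthest out at 3.06.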

How the data were processed

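The expression of genes in sorted DCs was measured on 36 Illumina mouseRef-8 v2.0 arrays. The authors deposited non-normalized signal intensity with a detection p-value per probe, exported from BeadStudio, and a table of log2 values that the authors made in GeneSpring (background replacement, quantile normalization, filter on low values, baseline to the median). The authors' table was used as an alternative. Here each intensity was raised to the lowest signal with a detection p-value under 0.05 on its array (74.4 to 108), put on the log2 scale and quantile normalized. Probes above background on at least 3 arrays were kept (14202 of 25697), with the brightest probe per gene. Genes were named from the array annotation, which gave 23978 probes 1 gene and 1719 none, and symbols were checked through Entrez IDs (0 changed).

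One limma fit (limma 3.58.1, R 4.3.3) held a mean per group, and p-values were adjusted by Benjamini-Hochberg over 9606 genes. Calls needed an adjusted p under 0.05 and a 2-fold difference. The fit was tested on simulated data. The number of arrays limits the precision. Same-numbered samples deviated together between unstimulated DCs and both knockouts at 4 h (PRR-/- and IFNAR-/-, r of 0.124 to 0.688 and 0.317 to 0.741), so the numbers were taken to pair these samples. The main fit, which gave every printed difference and SE, did not use this pairing. It entered only as the replicate block among the alternatives, where the same members were called in both of these comparisons. The sets of resembling samples and the split of unstimulated samples were chosen after the data were seen. The members and lists were chosen with earlier results of these data known. All members were named, with up to 3 called genes per list and comparison, the 3 genes with the highest correlation for each called member, and up to 4 called markers per list. Alternatives covered scaling, background, floor, filter, probe choice, the authors' table, the test, thresholds, the replicate block and each sample left out.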

Additional observations from a re-analysis of the deposited data

Results flagged for a closer look

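For 4 of the 8 members, the difference between IFNAR-/- and WT DCs was not the same at 14 h as at 4 h, by a test of that difference across times (an interaction in the limma fit, which called 7.02% of all genes). The difference at 14 h less that at 4 h was 2.98 ± 0.40 (SE) for Hmox1, 2.43 ± 0.33 for Blvrb, 2.20 ± 0.72 for Slc40a1 and 1.98 ± 0.39 for Slc11a1. At 4 h the 4 genes had differed between IFNAR-/- and WT DCs by -0.13, -0.22, 0.23 and 0.35. The genes were listed with these values known, so this count of members is a description. In 0 of 40 groups of 4 to 10 samples did a single sample stand apart from the rest.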

How the results depend on the processing

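Of the 64 member differences, none that was called changed sign under 1568 alternative values, and 42 values moved by more than the spread between samples, chiefly for Hebp1 and Slc40a1 against part of the unstimulated samples. Without a fold limit, the members called were 5 in WT DCs at 4 h over unstimulated, 1 in IFNAR-/- over WT DCs at 4 h and 7 in IFNAR-/- over WT DCs at 14 h. In IFNAR-/- DCs at 4 h over unstimulated 1 was called by the methods' t-test, by limma on the 2 groups alone and at an adjusted p under 0.01. In PRR-/- over WT DCs 1 was called by the t-test and by the 2 groups alone, and 0 at an adjusted p under 0.01. With arrays at one median, which moved the median of all genes by between -0.218 (IFNAR-/- over WT DCs at 14 h) and 0.231 (WT DCs at 4 h over unstimulated), 1 member was called in WT DCs at 14 h over unstimulated. Against unstimulated samples 6 to 9 alone, 5 members were called in PRR-/- DCs.

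For the other heme and iron genes, the neqc background gave 10 in PRR-/- DCs, 7 in IFNAR-/- DCs and 8 in WT DCs at 4 h over unstimulated. At 14 h it gave 13 for WT DCs over unstimulated and 12 for IFNAR-/- over WT DCs. With no fold limit they were 24, 17 and 29 at 4 h over unstimulated, 14 in IFNAR-/- over WT DCs at 4 h, 14 (IFNAR-/-) and 31 (WT) at 14 h over unstimulated and 28 between them. The t-test gave 3 between them. In PRR-/- DCs over unstimulated the count was 4 with arrays at one median or unstimulated samples 6 to 9, and 5 with unstimulated samples 1 to 5 or the sets as a block.

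With the replicate number as a block, 0 members were called in PRR-/- over WT DCs at 4 h and 5 other heme and iron genes in PRR-/- DCs over unstimulated. It moved no other of the 16 counts by over 1.5 times, but the members behind a count could change. In IFNAR-/- DCs at 14 h over unstimulated the Slc11a1 call was lost and Hebp1 was called lower, and in WT DCs at 14 h the Tfrc call was lost. Same-numbered samples were not paired in the remaining comparisons (lowest r -0.104 for WT DCs at 4 h and -0.464 for IFNAR-/- DCs at 14 h over unstimulated).

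Leaving out each sample in turn gave 1 to 3 members in IFNAR-/- DCs at 4 h over unstimulated, 1 to 2 in PRR-/- over WT DCs, and 2 to 4 in WT DCs at 14 h over unstimulated. The other genes ranged from 2 to 5 in PRR-/- DCs at 4 h over unstimulated and from 5 to 10 in IFNAR-/- over WT DCs at 14 h. The causes were not tested. Groups of 3 or 4 samples and low signals (Gab2, Fut10 and Lcn2 near background) limit what can be read.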
